A study of Homo sapiens with 6 samples.

Results

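Oxidative phosphorylation genes were followed through ATAC-seq peak lists of U937 cells with and without the neutrophil serine proteases. They were taken by symbol from the RefSeq annotation (GRCh38.p14), as the nuclear protein-coding genes whose symbols start with NDUFA, NDUFB, NDUFC, NDUFS, NDUFV, UQCR, COX4 to COX8 or ATP5, with SDHA, SDHB, SDHC, SDHD and CYC1. This gave 97 of 19974 protein-coding genes on chromosomes 1-22 and X: 37 complex I, 4 complex II, 10 complex III, 17 complex IV and 19 complex V genes, 8 assembly factors of complex I whose symbols start with NDUFAF, and 2 readthrough genes. The rule reads symbols only, although the group was taken up with earlier results of these data known. A gene was scored in a library when a peak of that library's list lay within 1000 bp of either end of the gene, and such a peak is called a gene-end peak. A gene with gene-end peaks in 2 or 3 clones and no control line is called recurrent below.

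U937 is an established human monocytic cell line. ATAC-seq uses a transposase that cuts open DNA, and a peak marks a site with more cuts than its surroundings. The 3 control lines carried control plasmids. In the 3 independent ΔNSPs clones the protease genes CTSG, ELANE and PRTN3 had been depleted together. All 6 cultures were selected with geneticin, treated with DNase and cryopreserved in DMSO medium before the assay. Each ΔNSPs library is 1 clone, so differences between clones and differences between preparations cannot be told apart, and the p-value below measures only the spread between these libraries.

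Oxidative phosphorylation is the last stage of respiration in the inner mitochondrial membrane. Complexes I and II feed electrons from NADH and succinate into ubiquinone, complex III passes them to cytochrome c, complex IV passes them to oxygen, and ATP synthase, or complex V, uses the resulting proton gradient to make ATP. Most subunits are encoded in the nucleus, scattered over the chromosomes, and their promoters are known for sites of the factors NRF1, GABP (an ETS factor) and YY1.

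The control lists were nearly empty throughout, with 13, 4 and 2 peaks on chromosomes 1-22, X and Y in control lines 1, 2 and 3 against 14262, 24981 and 2188 in clones 1, 2 and 3. A gene without a control peak is therefore nothing particular to that gene. The lists give a fold enrichment and −log10 p and q values of the authors' peak caller for each peak, and no value for a site without one. The files hold no read totals, which leaves library depth unknown, and shares cannot be read as levels of opening. Of 11 monocytic marker genes, 6 had a gene-end peak in some clone. CD68 and ITGAM were recurrent (18.2%, against 23.3% of all protein-coding genes), and CD33, CD4, CSF1R and CD14 had a peak in clone 2 alone. SPI1, ITGB2, LYZ, MPO and FCGR1A had none (45.5%, against 53.4% of all genes). Of 5 markers of other blood cells, CD3E alone had any, in clones 1 and 2, and ALB, KRT5, GFAP and MYH7, markers of other tissues, had none. These peaks describe accessibility and not expression.

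No oxidative phosphorylation gene had a gene-end peak in a control line, and 66 of the 97 had one in at least 1 clone. The remaining 31 (32%) had none in any clone, against 53.4% of all protein-coding genes. Clone 1 had a peak at 46 of the 97 genes (47.4%, against 39.1% of all protein-coding genes). Clone 2 had one at 52 genes (53.6%, against 29.6%), and clone 3 at 12 genes (12.4%, against 6.55%). The share lay above that of all genes in each of the 3 clones, with the widest gap in clone 2. Over the groups, 36.7 ± 21.6 genes (SD, n = 3) had a peak in the clones and 0 ± 0 (SD, n = 3) in the control lines. The difference of means on log10(genes + 1) was 1.5, with an exact two-sided permutation p = 0.1, the smallest that 3 libraries against 3 allow. The groups did not overlap, as was so for peaks in general.

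**Figure D1:**
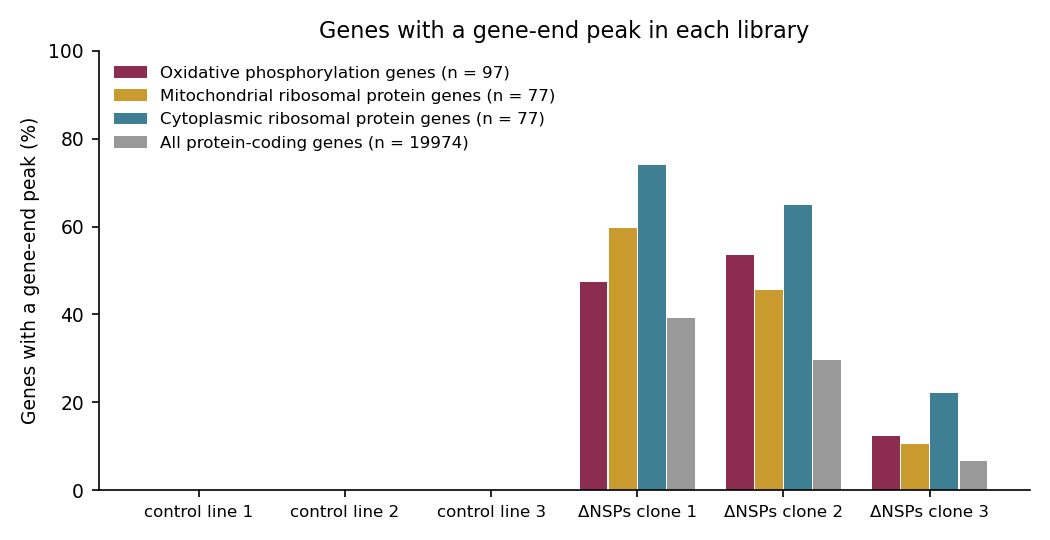
Percentage of genes with a gene-end peak (vertical axis) in each of the 6 libraries (horizontal axis), for oxidative phosphorylation genes, mitochondrial and cytoplasmic ribosomal protein genes and all protein-coding genes; each bar is 1 library. The control lines are at 0 for the 3 gene groups, and oxidative phosphorylation genes reach 47.4, 53.6 and 12.4% in clones 1, 2 and 3.

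Of the 97 genes, 37 (38.1%) were recurrent, against 23.3% of all protein-coding genes. In all 3 clones and no control line there were 7 (7.22%, against 5.4% of all genes), a share close to the background. By pattern, 25 genes had a peak in clones 1 and 2 only, 4 in clones 2 and 3 and 1 in clones 1 and 3. Clones 1 and 2 had the longest lists, and shares of all genes by pair are not given here. A single clone had the peak at 29 genes (29.9%, against 23.3% of all genes), 16 of them in clone 2 and 13 in clone 1. No clone had one at 31 genes (32%, against 53.4%). With clone 1 left out 11 genes had a peak in both other clones (11.3%, against 5.63% of all genes), and with clone 2 left out 8 (8.25%, against 6.21%). Peaks of different clones overlapped at 35 of the 37 genes (94.6%, against 91.8% of all recurrent genes), the exceptions being NDUFA13 and NDUFB11, so that overlap was general in these lists.

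Because the lists differ in length, they were also reduced to the 2188 peaks with the highest −log10 q in each clone. The members then numbered 14 in clone 1 (14.4%, against 9.53% of all genes), 10 in clone 2 (10.3%, against 5.31%) and 12 in clone 3 (12.4%, against 6.55%). Clone 3 thus had about as many members as the others once the lists were equally long, but 9 genes in place of 37 were then recurrent (9.28%, against 4.9% of all genes).

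**Figure D2:**
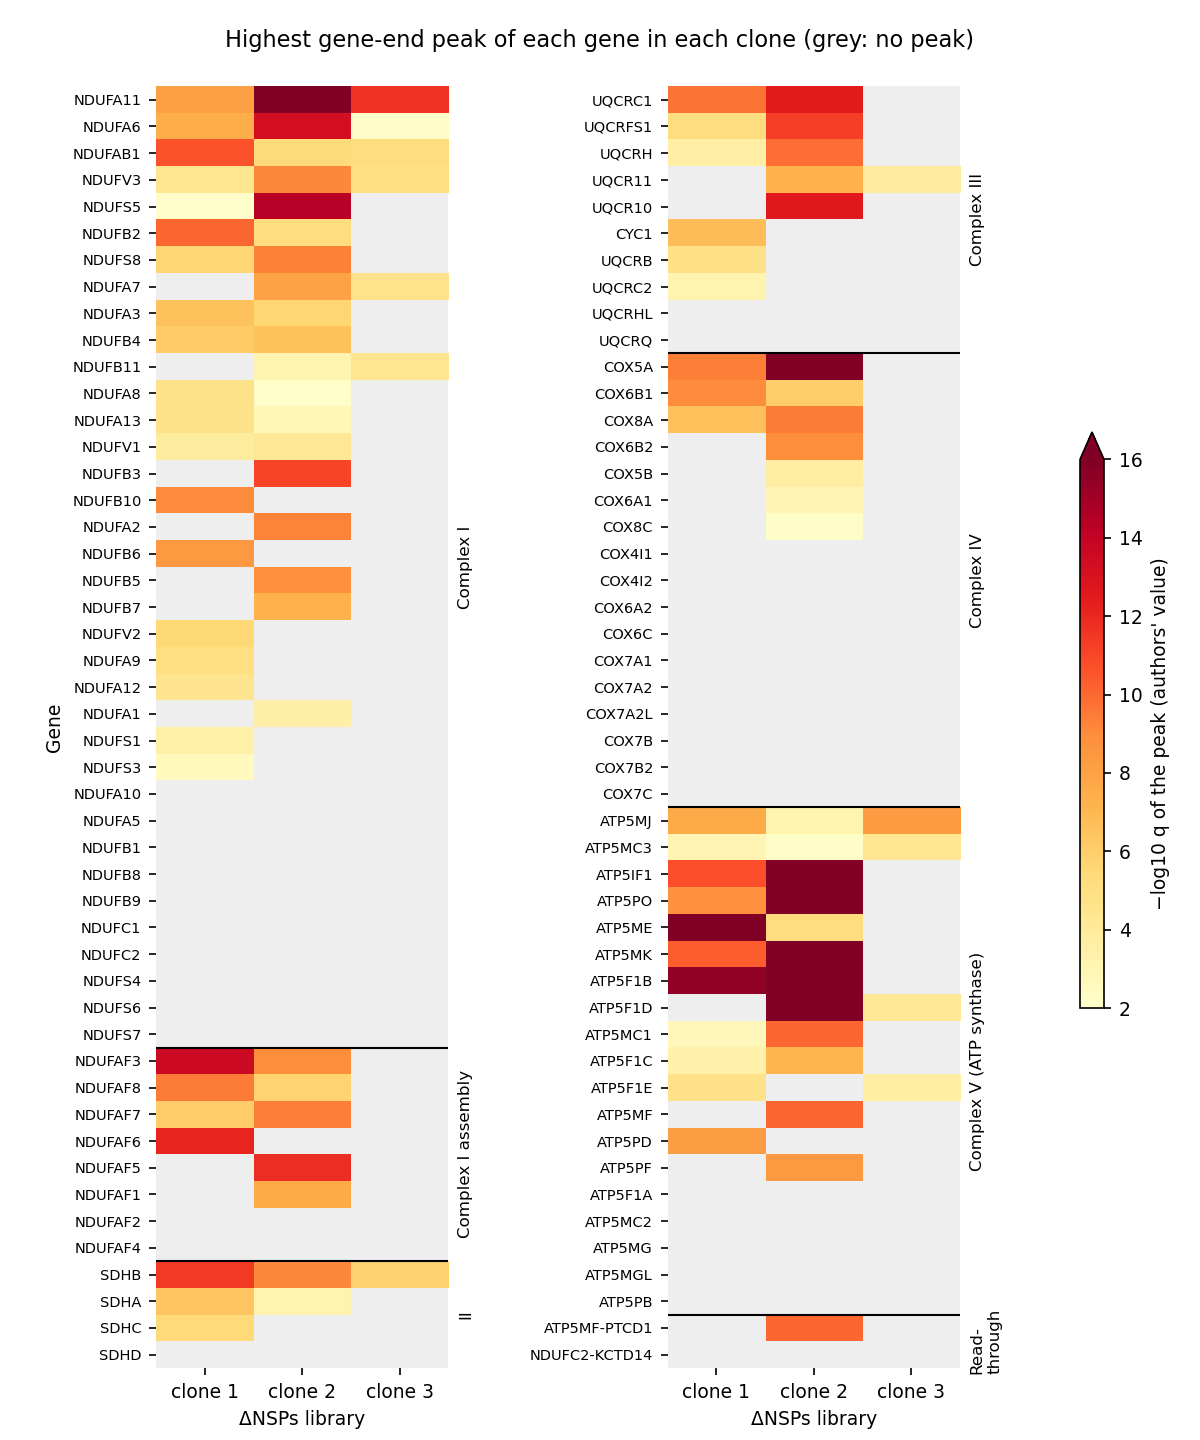
Heat map of the highest −log10 q (colour scale, authors' values, capped at 16) among the gene-end peaks of 96 of the 97 genes (rows, by complex) in clones 1, 2 and 3 (columns); grey marks a gene with no peak. Peaks in all 3 columns are seen at 7 genes, and complex IV has none in clone 3.

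The 7 genes with a peak in all 3 clones were SDHB, NDUFAB1, NDUFA6, NDUFA11, NDUFV3, ATP5MJ and ATP5MC3. Beside some folds, the reads that the fold and p imply at the summit and in the local background are given, to show what a value rests on. A fold printed without them can rest on few reads. SDHB encodes the iron-sulfur subunit of succinate dehydrogenase. Its peak lay at chr1:17054050-17054313 in clone 1, and the folds were 3.59, 3.33 and 3.31 in clones 1, 2 and 3. The implied pile-up was 54, 49 and 38 reads over backgrounds of 14.3, 14 and 10.8 reads. The SDHB summits lay at -112, -63 and -153 bp from the start in the same order (negative values lie before it).

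NDUFAB1, the mitochondrial acyl carrier protein that is also a subunit of complex I, had folds of 4.49, 3.92 and 3.66 in clones 1, 2 and 3, with its clone 1 peak at chr16:23596081-23596485. NDUFA6, an accessory subunit of complex I, had folds of 2.90, 4.29 and 2.15, and its −log10 q was 7.46, 13.3 and 2.18. The clone 3 peak of NDUFA6 stood low in its list, 89.4% of the way down by −log10 q. NDUFV3, a flavoprotein-module subunit of complex I, had folds of 2.47, 3.42 and 2.74 across clones 1, 2 and 3. Its peaks also lay in the window of WDR4. ATP5MJ, a small subunit of ATP synthase, had folds of 3.68, 4.10 and 4.18, although the clone 2 value rested on an implied 12 reads over 2.17, against 35 over 8.77 and 37 over 8.09 in clones 1 and 3. ATP5MC3, one of the genes for the rotating c ring of ATP synthase, had folds of 3.37, 2.73 and 3.19 in clones 1, 2 and 3, with −log10 q values of 3.01, 2.21 and 4.34. Among the 7 it had the lowest mean rank in clones 1 and 2.

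NDUFA11, a membrane-arm subunit of complex I, carried the highest −log10 q of the 97 genes in clone 2 (26.7) and in clone 3 (11.6), with 8.10 in clone 1. The folds were 2.54, 4.42 and 2.87 in clones 1, 2 and 3, at implied pile-ups of 70, 94 and 87 reads. Those summits lay at -729, -774 and -748 bp from the start of NDUFA11, within the window of VMAC as well, so that the peak cannot be given to either gene. Clone 1 had a second, weaker peak at -213 bp, with a −log10 q of 2.09. With a window of 500 bp NDUFA11 kept a peak in 1 clone in place of 3.

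To show the DNA under these peaks, the 200 bases before the start are printed for 5 of the 7 genes (NDUFA11, whose shared peak lay farther off, and ATP5MC3 are named only), from RefSeq (GRCh38.p14), 5′ to 3′ on the strand of the gene. Capitals mark exact matches, on either strand, to 4 short motifs: GCATGCGC for NRF1, CCGGAAG for ETS factors, AAGATGGCG for YY1 and GGGGCGG for SP1.
SDHB (chr1:17054033-17054232, minus strand): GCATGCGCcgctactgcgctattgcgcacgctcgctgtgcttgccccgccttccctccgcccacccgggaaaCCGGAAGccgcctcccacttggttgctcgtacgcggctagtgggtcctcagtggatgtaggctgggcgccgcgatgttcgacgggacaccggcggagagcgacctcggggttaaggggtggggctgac
NDUFA6 (chr22:42090773-42090972, minus strand): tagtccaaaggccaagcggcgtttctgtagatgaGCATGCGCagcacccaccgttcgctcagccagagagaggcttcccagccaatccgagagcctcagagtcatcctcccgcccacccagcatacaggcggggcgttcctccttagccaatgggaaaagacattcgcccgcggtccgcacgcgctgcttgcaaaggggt
NDUFAB1 (chr16:23596317-23596516, minus strand): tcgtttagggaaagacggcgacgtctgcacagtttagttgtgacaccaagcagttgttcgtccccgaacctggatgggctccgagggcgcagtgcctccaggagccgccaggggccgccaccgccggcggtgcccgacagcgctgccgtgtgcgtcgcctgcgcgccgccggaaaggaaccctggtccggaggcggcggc
NDUFV3 (chr21:42893109-42893308, plus strand): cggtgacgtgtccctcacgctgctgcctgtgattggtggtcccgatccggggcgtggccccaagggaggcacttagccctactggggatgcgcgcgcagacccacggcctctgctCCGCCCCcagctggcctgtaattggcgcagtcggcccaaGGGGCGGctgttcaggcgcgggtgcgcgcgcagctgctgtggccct
ATP5MJ (chr14:103921530-103921729, minus strand): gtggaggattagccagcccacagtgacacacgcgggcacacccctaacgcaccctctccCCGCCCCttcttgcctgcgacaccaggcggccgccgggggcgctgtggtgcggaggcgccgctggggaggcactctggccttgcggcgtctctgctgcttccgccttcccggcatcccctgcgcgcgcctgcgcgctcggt
In SDHB the capitals are an NRF1 match starting at -200 and an ETS match starting at -128, and both lay inside the peaks of all 3 clones. In NDUFA6 they mark an NRF1 match starting at -166, again inside all 3 peaks. NDUFV3 and ATP5MJ have only SP1 matches there, and NDUFAB1 has none of the 4. Peaks covered 183, 183 and 114 of the 200 SDHB bases in clones 1, 2 and 3, and 200, 200 and 155 of those of NDUFV3.

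In complex I, which takes electrons from NADH, 14 of 37 genes (37.8%) were recurrent, against 23.3% of all genes. The share with a gene-end peak was 51.4% in clone 1 (all genes 39.1%), 54.1% in clone 2 (29.6%) and 16.2% in clone 3 (6.55%). Of the 7 core subunits of the arm that carries the flavin and the iron-sulfur clusters, 2 were recurrent, NDUFV1 and NDUFS8. Of all genes 23.3% were. NDUFV1, which binds NADH, had a fold of 2.95 in clone 1 and 3.33 in clone 2, and NDUFS8 had 2.87 and 3.80. NDUFS1, NDUFS3 and NDUFV2 had a peak in clone 1 alone. NDUFS7 had none.

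Accessory complex I subunits included the highest folds of the complex. NDUFS5 had a fold of 8.50 in clone 2, from an implied 24 reads over 1.94, and 3.40 in clone 1. NDUFB10 had 5.86 in clone 1, from an implied 22 reads over 2.92, and no gene-end peak in the other clones. In clone 2 its nearest peak lay 1065 bp from a gene end. NDUFA7 and NDUFB11 had peaks in clones 2 and 3 and not in clone 1. Of the 37 complex I genes, 10 had no gene-end peak in any clone, where 53.4% of all genes had none. Among the 10 were NDUFA10, NDUFA5, NDUFB1, NDUFB8 and NDUFB9, and both NDUFC genes.

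The 8 assembly factors of complex I, which help to build it without remaining in it, included 3 recurrent genes (37.5%, against 23.3% of all genes) and none with a peak in clone 3, where 6.55% of all genes had one. NDUFAF3 had a fold of 4.24 in clone 1 and 4.22 in clone 2, NDUFAF7, a methyltransferase, 3.33 and 5.24, and NDUFAF8 3.02 and 2.61. All 3 shared their peaks with a neighbour, DALRD3, CEBPZ and TEPSIN. NDUFAF6 had a fold of 3.17 in clone 1 alone, from an implied 69 reads over 21.1, in a peak shared with CCNE2. NDUFAF2 and NDUFAF4 had none.

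Complex II is the smallest of the group, and its 4 genes differed. SDHA, the flavoprotein that oxidises succinate, had a fold of 3.83 in clone 1 and 3.22 in clone 2, in peaks shared with CCDC127. SDHC, a membrane anchor, had a fold of 4.28 in clone 1 alone, and SDHD, the other anchor, had none, with its nearest peak 61294 bp away. Only SDHB, described above, was found in all 3.

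In complex III 4 of 10 genes (40%) were recurrent, against 23.3% of all genes. UQCRC1, a core subunit, had a fold of 3.50 in clone 1 and 4.73 in clone 2, with implied pile-ups of 48 and 41 reads. UQCRFS1, the Rieske iron-sulfur protein, had 3.10 and 5.06, and UQCRH, the hinge protein, 2.54 and 4.36. CYC1, the cytochrome c1 gene, had a fold of 4.65 in clone 1 alone, from an implied 22 reads over 3.95. UQCR11 had peaks in clones 2 and 3 whose summits lay at -597 and -450 bp from the start. UQCRQ and UQCRHL, a gene similar to UQCRH, had none.

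Complex IV had the lowest recurrent share of the complexes, with 3 of 17 genes (17.6%) recurrent, below the 23.3% of all genes. Its share was 17.6% in clone 1 (all genes 39.1%), 41.2% in clone 2 (29.6%) and 0% in clone 3. The list holds 6 isoforms known for expression in heart, muscle, lung or testis (COX4I2, COX6A2, COX6B2, COX7A1, COX7B2 and COX8C), and without them the count was 3 of 11 (27.3%). The 3 genes were COX5A, COX6B1 and COX8A. COX6B1 had a fold of 2.80 in clone 1 and 3.18 in clone 2, and COX8A had 3.22 and 3.92.

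COX5A had the highest fold of all members, 11.7 in clone 2, but that peak lay at the far end of the gene, 17499 bp after the start, with an implied 21 reads over 0.878. The peaks of COX5A at its start had folds of 3.63 in clone 1 and, for the stronger of 2 there, 5.30 in clone 2. COX5B and COX6A1 had a peak in clone 2 alone, with folds of 2.65 and 3.13. Of the 17 complex IV genes, 10 had no gene-end peak in any clone, where 53.4% of all genes had none. None of the 6 COX7 genes and neither COX4 gene had one, including the widely expressed COX4I1, COX7A2 and COX7C. COX6C and COX6A2 also had none. Among the isoforms of other tissues, COX6B2 and COX8C had a peak in clone 2 alone, with summits 567 and 854 bp after the start.

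ATP synthase had the highest recurrent share, with 11 of 19 genes (57.9%, against 23.3% of all genes). Peaks lay at 57.9, 63.2 and 21.1% of its genes in clones 1, 2 and 3 (all genes 39.1, 29.6 and 6.55%). Its share was below complexes II (75%) and III (60%) in clone 1 and below complex II (25%) in clone 3. Of the 5 genes of the catalytic F1 head and its central stalk, 4 were recurrent. ATP5F1B, the catalytic beta subunit, had the best mean rank of the genes with peaks in both clones 1 and 2, with folds of only 3.13 and 3.22 but implied pile-ups of 89 and 88 reads and −log10 q values of 15.5 and 16.2. ATP5F1C, the gamma subunit, had a fold of 3.77 in clone 1, from an implied 15 reads over 3.25, and 3.57 in clone 2. ATP5F1D, the delta subunit, had 7.83 in clone 2, from an implied 30 reads over 2.96, and 3.53 in clone 3. ATP5F1E, the epsilon subunit, had 3.05 and 2.88 in clones 1 and 3. ATP5F1A, the alpha subunit, had none, and its nearest peak lay 69238 bp away.

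Genes of the inhibitor, the membrane part and the stalk of ATP synthase gave further peaks. ATP5IF1, the protein that blocks ATP hydrolysis when the proton gradient fails, had a fold of 3.21 in clone 1 and 5.20 in clone 2, and a −log10 q of 10.7 and 25.3. ATP5MK had 3.08 and 4.77, in a peak shared with PDCD11, and ATP5PO, a stalk subunit, had 3.20 and 5.39. ATP5ME went the other way, with 6.05 in clone 1 and 2.99 in clone 2, in peaks that also lay in the window of MYL5. Clone 3 had no peak at these 4 genes. ATP5MC2, ATP5MG, ATP5MGL and ATP5PB had no gene-end peak in any clone. ATP5MF and the readthrough gene ATP5MF-PTCD1 shared a single clone 2 peak, with a fold of 3.76, and NDUFC2-KCTD14, the other readthrough gene, had none.

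**Figure D3:**
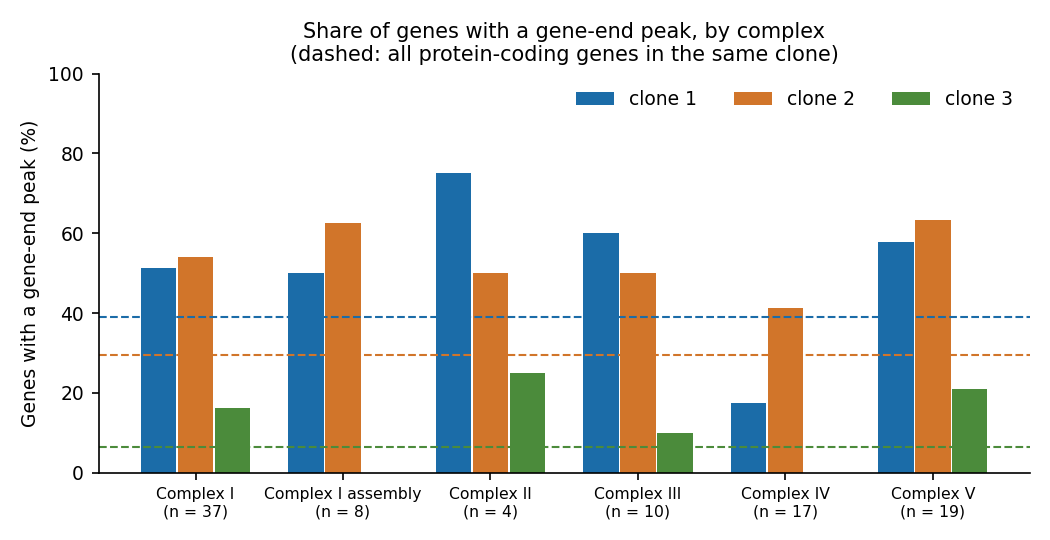
Percentage of genes with a gene-end peak (vertical axis) by complex (horizontal axis, n genes under each name) in clones 1, 2 and 3; dashed lines give the share of all protein-coding genes in the same clone (39.1, 29.6 and 6.55%). Complexes I, II, III and V lie above the line in each clone, the complex I assembly factors in clones 1 and 2, and complex IV in clone 2 alone.

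Most peaks lay just before the start of the gene. A start was listed for 78 of the 97 genes. At these, 40 of 42 gene-end peaks in clone 1, 45 of 48 in clone 2 and 10 of 10 in clone 3 had their summit nearer to the start than to the other end. In that count the start is the outermost end of the gene on its strand. Distances are taken from the nearest listed start, which can lie inside the gene. Summits within 1000 bp of a listed start had a median position of -72.0, -79.0 and -116.5 bp in clones 1, 2 and 3, and 36 of 40, 38 of 46 and 10 of 10 lay before the start. For all genes with a listed start the medians were -67.0, -83.0 and -119.0 bp, and 67.5, 77.5 and 79.8% lay before the start. The medians of members and of all genes were close, while a larger part of the member summits lay before the start in each clone. With the window at the outermost start alone, 33 of 78 genes (42.3%) were recurrent, against 23.7% of all genes with a listed start.

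**Figure D4:**
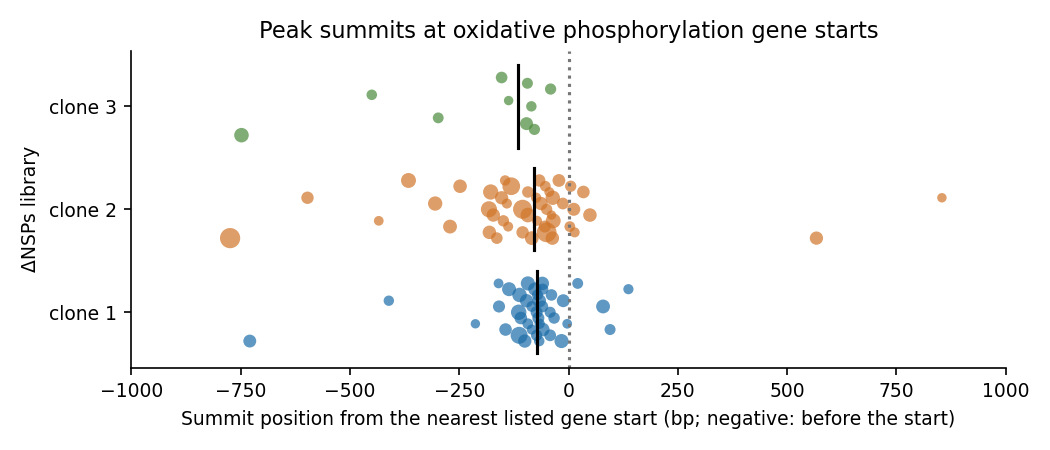
Position of the peak summits from the nearest listed gene start in bp (horizontal axis, negative before the start) for oxidative phosphorylation genes in clones 1, 2 and 3 (vertical axis); each point is 1 peak at 1 gene, a larger point has a higher −log10 q, and black bars are the medians (-72.0, -79.0 and -116.5 bp). Most points lie within 250 bp before the start, and the leftmost point in each clone, at -729, -774 and -748 bp, is NDUFA11.

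As peaks, those of the members resembled gene-end peaks in general in fold and ranked higher in their lists. The median fold was 3.27 at 49 member peaks in clone 1, 3.87 at 56 in clone 2 and 3.42 at 12 in clone 3, against 3.54, 3.74 and 2.98 over all gene-end peaks of the same clones. The median −log10 q was 6.15, 8.15 and 4.48 in clones 1, 2 and 3, against 5.17, 5.73 and 3.75. The median implied pile-up was 33, 34 and 33 reads, against 27, 28 and 34. Member peaks within the highest 10% of a list numbered 7 in clone 1 (14.3%, against 13.9% of all gene-end peaks), 13 in clone 2 (23.2%, against 16.9%) and 2 in clone 3 (16.7%, against 12%).

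Many members lie close to another gene, and their peaks then belong to both. Of the 97 genes, 48 (49.5%) had an end of another protein-coding gene within 1000 bp of one of their own ends, against 28.6% of all genes. Of the peaks, 20 of 49 member peaks in clone 1 (40.8%), 26 of 56 in clone 2 (46.4%) and 5 of 12 in clone 3 (41.7%) also lay in the window of another gene, against 20.6, 20.6 and 29.3% of all gene-end peaks. Such pairs were NDUFB5 with MRPL47, a mitochondrial ribosomal protein gene (fold 3.51 in clone 2), NDUFA7 with RPS28 (4.15 and 3.91 in clones 2 and 3), and ATP5PF with GABPA, which encodes the DNA-binding subunit of GABP (2.72 in clone 2, from an implied 64 reads over 22.9). Among the members, 16 of 48 genes with one (33.3%) and 21 of 49 without (42.9%) were recurrent. Over all genes the shares were 39.1% with a neighbour and 16.9% without. When peaks lying in more than 1 gene's window were left out, 22 of 97 members (22.7%) were recurrent, against 14.4% of all genes.

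Of the 31 genes with no gene-end peak, 5 had a peak of some clone within 5000 bp of an end, and the median distance to the nearest peak of any clone was 14733 bp. The closest was NDUFC1, with a clone 1 peak 1058 bp from a gene end, and the farthest COX7B2, at 542636 bp. Just inside the window lay the peak of NDUFAF3 in clone 2, 990 bp from a gene end. In 6 of the 31 genes a peak lay inside the gene, and in 4 of these (NDUFA5, NDUFC1, COX7A2L and ATP5MC2) its summit lay within 200 bp of a listed start of the gene. ATP5MC2, which like ATP5MC3 encodes the c ring, had such peaks in clone 1 (chr12:53676098-53676307, fold 2.43) and in clone 2 (chr12:53676073-53676281, fold 3.76). The summit in NDUFA5 lay at -3 bp and that in COX7A2L at -199 bp from a listed start. These 4 genes thus lacked a peak at their annotated ends and had one at a start inside the gene.

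Promoter sequences of the 78 genes with a listed start were searched for the 4 motifs over 250 bases before to 50 bases after the start, on both strands. These motifs can overlap each other and themselves. An NRF1 match was present in 15 of 78 members (19.2%), against 4.27% of 15813 protein-coding promoters of the same length. ETS matches were in 22 members (28.2%, against 14.1%) and YY1 matches in 9 (11.5%, against 2.69%), whereas SP1 matches were in 21 (26.9%, against 41.3%). At least 1 of the NRF1, ETS and YY1 matches was found in 34 members (43.6%, against 19.4%). A match describes these letters and does not show that a factor binds.

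NRF1 matches were about as frequent in members with and without gene-end peaks. They were in 6 of 33 recurrent members (18.2%), in 4 of 21 with a peak in 1 clone (19.0%) and in 5 of 24 without a gene-end peak (20.8%). Of these 24 promoters 1, that of ATP5MC2, met peaks of clones 1 and 2 at its inner start, and it is among the 5 with an NRF1 match. ETS matches were in 27.3, 38.1 and 20.8%, and YY1 matches in 15.2, 9.52 and 8.33% of the same sets of genes, and SP1 matches in 21.2, 28.6 and 33.3%. CG dinucleotides in the 300 bases were counted in members with a gene-end peak in 0, 1, 2 and 3 clones (24, 21, 27 and 6 genes). Their median number was 19.5, 20, 25 and 29, against 22 over all promoters. The ranges overlapped, at 0 to 42, 10 to 39, 9 to 41 and 26 to 31. The same split was not made for all genes. The median GC content of the same sets was 55.2, 58.7, 61.7 and 65.3%, against 62.7%. The part of base composition in the presence of peaks was not tested.

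**Figure D5:**
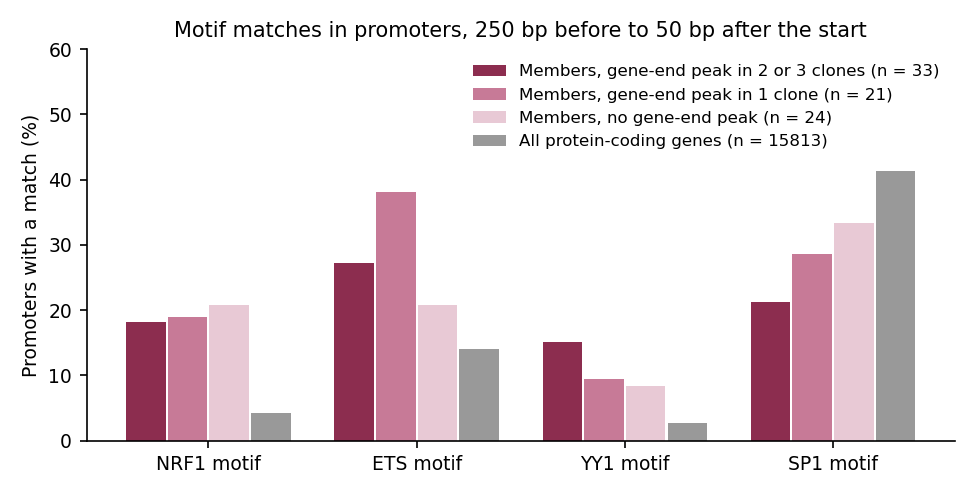
Percentage of promoters with a match to each motif (vertical axis, 250 bp before to 50 bp after the start) for members with a gene-end peak in 2 or 3 clones, in 1 clone and in none, and for all protein-coding genes. NRF1 matches are at 18.2, 19.0 and 20.8% in the 3 sets of members against 4.27% of all promoters, and SP1 matches lie below the 41.3% of all promoters in each set.

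Where a member had both an NRF1 match and a gene-end peak, the match lay inside a peak of at least 1 clone at 7 of 10 genes. The counts were 11 of 17 for ETS, 4 of 7 for YY1 and 10 of 13 for SP1. The searched stretch and most summits both lie near the start. The same counts were not made for all genes or for other letters, so nothing particular to these motifs or members is shown. For NRF1 the match was inside the peaks of 2 or 3 clones at ATP5F1C, ATP5ME, NDUFA6, NDUFB4 and SDHB. For ETS this held at 3 of 17 genes (ATP5MK, COX6B1 and SDHB) and for YY1 at 1 of 7 (UQCRC1). For SP1 it held at 4 of 13 (ATP5F1E, ATP5IF1, ATP5MJ and NDUFV3). The 200 bases before the start are shown for ATP5ME and ATP5IF1, which had peaks in clones 1 and 2, and for NDUFS7, which has an NRF1 match and no peak in any clone.
ATP5ME (chr4:674277-674476, minus strand): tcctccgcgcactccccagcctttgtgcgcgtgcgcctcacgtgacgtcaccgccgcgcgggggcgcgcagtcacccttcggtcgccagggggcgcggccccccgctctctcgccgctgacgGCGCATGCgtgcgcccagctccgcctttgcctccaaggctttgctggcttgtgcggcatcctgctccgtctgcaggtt
ATP5IF1 (chr1:28235924-28236123, plus strand): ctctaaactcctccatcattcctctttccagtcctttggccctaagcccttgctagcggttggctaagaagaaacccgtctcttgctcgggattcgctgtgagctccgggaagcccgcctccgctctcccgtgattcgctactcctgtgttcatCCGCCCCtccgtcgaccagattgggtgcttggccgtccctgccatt
NDUFS7 (chr19:1383707-1383906, plus strand): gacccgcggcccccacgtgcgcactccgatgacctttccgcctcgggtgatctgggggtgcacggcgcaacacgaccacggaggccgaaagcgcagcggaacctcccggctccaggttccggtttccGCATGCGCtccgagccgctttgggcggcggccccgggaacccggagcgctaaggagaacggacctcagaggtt
Capitals again mark the matches: NRF1 in ATP5ME, starting at -78, and in NDUFS7, starting at -73, and SP1 in ATP5IF1. Peaks covered 174 and 138 of the 200 ATP5ME bases in clones 1 and 2 and none of those of NDUFS7, while the stretches held 27 and 26 CG dinucleotides.

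Other genes of the pathway are given beside the 23.3% of all protein-coding genes that were recurrent. Of the assembly factors outside the symbol rule 23 of 44 (52.3%) were recurrent, with COX14, SCO2, which delivers copper to complex IV, and UQCC5 in all 3 clones. Electron carriers and ubiquinone synthesis genes had 6 of 12 recurrent (50%), with CYCS, which encodes cytochrome c, and COQ8A in all 3 clones. Genes of mitochondrial DNA maintenance and transcription had 5 of 8 (62.5%), with TFB2M in all 3 and none at TFAM, TWNK or SSBP1. Of 9 regulators, YY1, SP1 and ESRRA had a peak in clones 1 and 2, NRF1 in clone 1 alone, GABPA in clone 2 alone, and PPARGC1A, the coactivator known for mitochondrial biogenesis, in none. For comparison, mitochondrial ribosomal protein genes had 24 of 77 recurrent (31.2%) and cytoplasmic ribosomal protein genes 42 of 77 (54.5%). The 97 genes (38.1%) lay between these by recurrent share, but below both in clone 1 (47.4%, against 59.7 and 74%) and by peaks in all 3 clones (7.22%, against 10.4 and 19.5%). The differences between the groups were not tested.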

How the data were processed

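Per the submitters' processing notes, FastQC, Bowtie2, Picard and MACS2 were used with build GRCh38. Tool versions, settings and any transposase shift: not given in the sources used here. The authors deposited 1 peak list per library. Its columns are a fold enrichment, or ratio to background, and −log10 p and −log10 q in the form deposited, beside the summit offset. Lines with the same interval were merged, keeping the highest summit, and 127 negative summit offsets in clone 2 were set to 0.

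Sample titles gave the groups and their numbers. Gene ends, starts and promoters came from RefSeq (GRCh38.p14); the members and gene lists were chosen with earlier results of these data known. The annotation gave 78 members and 15813 genes in all a strand and start. Pile-up and background were solved from the fold, (pile-up + 1)/(background + 1), and p, a Poisson tail, and matched 100% of the gene-end peaks within 0.001 in −log10 p. Gene assignment and this solution were tested on simulated data.

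The number of members with a peak per library was compared on log10(genes + 1) with an exact two-sided permutation test (20 assignments). No set test was run. Genes named were those with a peak in all 3 clones, the 3 best-ranked of each complex in clones 1 and 2, SDHA to SDHD, CYC1, up to 5 without peaks per complex and those at the window's edge; others were chosen after their values were seen. The values of 1 gene are not reported here, though counts over all 97 include it. Python 3.11.15, pandas 2.3.3 and SciPy 1.17.1 were used. Alternatives are in the closing section.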

Additional observations from a re-analysis of the deposited data

How the results depend on the processing

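The count of 37 genes recurrent in the clones (peaks in 2 or 3 clones, none in the control lines) was 33 to 39 with windows of 500 and 2500 bp, at the gene start alone, without the NDUFAF genes (34 of 89), by summit and with overlapping peaks required. It was 22 with a −log10 q of 5 or more (22.7%, against 11% of all genes), 22 with peaks in no other gene's window, 9 with equally long lists (9.28%, against 4.9%), 7 when all 3 clones were required and 0 with a fold of 5 or more (all genes 0.661%). Leaving out 1 clone gave 8 to 32. Of the 7 genes in all 3 clones, SDHB and NDUFAB1 stayed there in 7 of 8 settings tried for single genes, the exception being the fold of 5, and NDUFA11 and NDUFV3 lost all peaks when other genes' windows were barred. Equally long lists were not among those 8 settings, and with them none of the 7 genes had a peak in all 3 clones. SDHB and NDUFAB1 then kept theirs in clones 1 and 3 and not in clone 2. In each setting but the fold of 5 the share of members lay above that of all genes. The difference per library (1.5 on log10) could take no other direction, since no setting left a member peak in a control line; it ran from 0.548 (fold of 5 or more, exact p = 0.4) to 1.70 (without clone 3) on the log10 scale, and 36.7 genes untransformed. With the replicate number as a block it was 1.5, with an exact sign-flip p = 0.25, the smallest that 3 pairs allow; the number is only a name in these labels. Depth is unknown, so a missing peak does not show closed DNA.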
